A study of Mus musculus with 6 samples.

Results

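T-box transcription factors were followed in bone RNA of growth hormone (GH) deficient mice given GH or phosphate-buffered saline (PBS). The 4 genes are Tbx3, Tbx15, Tbx19 and Tbx20. They were taken as every probe row whose platform annotation holds one of these names and no other gene, which gave 4 of 21446 rows, 1 per gene, and 4 of the 8973 genes named alone on a row. The mice were C57BL/6J-Ghrhr<lit> (lit/lit), 4 weeks old, in which the disrupted receptor for GH-releasing hormone leaves little GH, and all of them, controls included, carried this mutation. Treated animals got a single subcutaneous dose of 4 mg GH per kg and controls got PBS, and bone was taken at 6 or 24 hours. Each array compared a GH pool in Cy5 with a PBS pool in Cy3, each pool holding RNA of 2 animals. There were 3 arrays at 6 hours (replicates 1 to 3) and 3 at 24 hours (replicates 4 to 6).

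T-box proteins share a DNA-binding domain named after Brachyury, and they switch genes on or off while tissues and organs take shape. Tbx3 belongs to the Tbx2 branch, acts mostly as a repressor, and is needed for limb and mammary development. It also acts on the growth of bone-forming osteoblasts. Tbx15, of the Tbx1 branch, is needed for normal cartilage and bone of the shoulder girdle and limbs, and also acts in skeletal muscle and fat. Tbx20, of the same branch, is a factor of heart development. Tbx19, also called Tpit, is related to Brachyury and switches on the hormone precursor gene Pomc in pituitary corticotrophs. GH acts through its receptor on the kinase JAK2 and on STAT5 factors.

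The start regions of Tbx19 and Tbx20 show how unlike the promoters of 2 genes with similar ratios at 24 hours can be. Both sequences are the 250 bases before the start, on the gene's own strand, from RefSeq on build GRCm38.p6. Capitals mark the CCAAT box and the GC box (GGGCGG or its reverse complement CCGCCC), a pair of common promoter motifs.
Tbx19, chr1:165160774-165161023, minus strand: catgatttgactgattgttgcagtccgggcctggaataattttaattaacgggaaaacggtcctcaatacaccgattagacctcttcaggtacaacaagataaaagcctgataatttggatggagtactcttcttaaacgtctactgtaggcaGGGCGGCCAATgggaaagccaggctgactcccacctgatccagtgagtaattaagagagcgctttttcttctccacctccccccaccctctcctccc
Tbx20, chr9:24774304-24774553, minus strand: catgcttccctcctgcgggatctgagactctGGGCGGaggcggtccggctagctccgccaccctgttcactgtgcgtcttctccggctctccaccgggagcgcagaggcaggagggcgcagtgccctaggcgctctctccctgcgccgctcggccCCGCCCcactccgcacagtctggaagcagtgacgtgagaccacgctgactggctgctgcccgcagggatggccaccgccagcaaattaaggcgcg
The Tbx19 window had 47.6% G and C and 7 CpG, while that of Tbx20 had 68.8% and 22, against medians of 52.4% and 6 over 32851 promoters. The search took both strands. Tbx19 held a GC box starting 97 bases before the start, directly followed by a CCAAT box at 91, and Tbx20 held GC boxes at 219 and 95. A GC box was found in 32.7% and a CCAAT box in 33.8% of all windows of this length. The STAT5 site TTCNNNGAA (in 7.02% of windows), the T-box half-site AGGTGTGA (1.12%) and TATAAA (12.4%) were not in these windows.

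The deposited values are log2 ratios, likely of GH over PBS: the labels put GH in Cy5 and name the samples for GH, but the value table states no direction. No dyes were swapped, so any dye effect of a probe would add to its ratio on every array. Such an effect would stay in the mean of each time and in the mean over both times. In these ratios and means GH and dye cannot be told apart, and the part of dye was not tested. A dye effect equal at both times would drop out only of the difference between times. The arrays held 18302 to 19961 values each. Replicate 1 stood apart, with an SD over rows of 0.466 against 0.676 to 0.913 on the other arrays. Its correlation with the others was 0.223 to 0.359 over rows, against 0.556 to 0.817 for the 10 pairs without it. The labels do not name the bone or say whether marrow was removed, and without channel intensities the tissue could not be checked against its markers. In tissue RNA a higher ratio can mean more RNA per cell or more cells of the type that makes it, which cannot be told apart.

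Of 24 possible values for the 4 genes 21 were present, and all 21 were above 0. The missing values were those of Tbx19 on replicates 1 and 5 and of Tbx20 on replicate 1. Over all 19326 rows tested (those with 2 or more values at both times), 20.3% were above 0 on every array that had a value. That share was 17.7% among rows with 6 values, 41.2% with 5 and 52.7% with 4. Missing values themselves went with higher ratios. The 1271 tested rows with no value on replicate 1 had a median log2 ratio of 0.63 over both times, and those with a value had -0.03. Of the former 51.4% passed as higher over both times and of the latter 17.0%. Tbx19 and Tbx20 are rows of the first kind, and the part of this in their ratios was not tested.

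**Figure D1:**
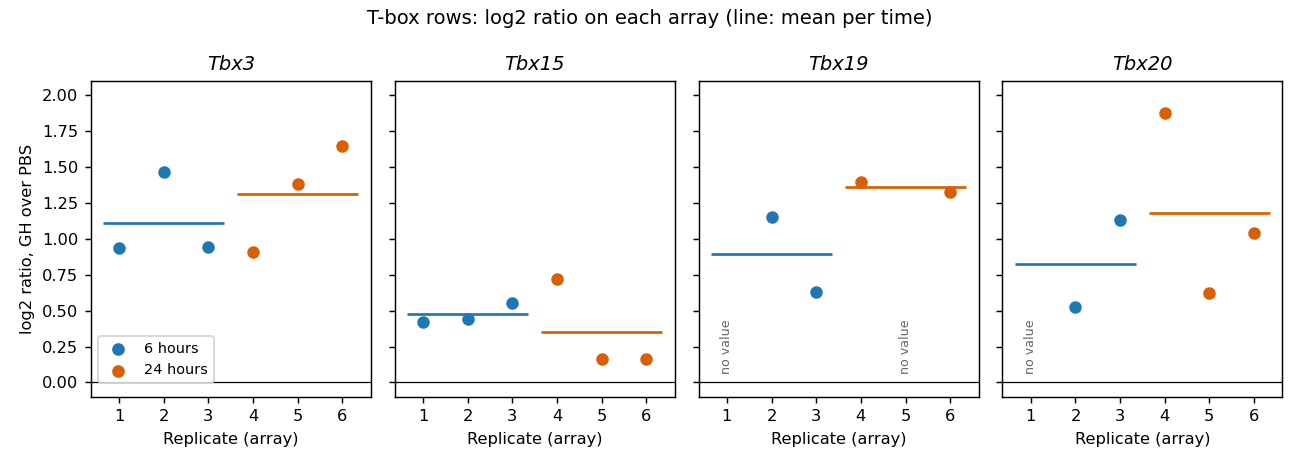
Log2 ratio of GH over PBS (vertical axis) of each T-box row on each array (horizontal axis), with blue points for 6 hours, orange points for 24 hours and a line at the mean of each time. All 21 values lie above 0, Tbx3 stays between 0.91 and 1.65, and Tbx15 is the lowest of the rows present on each array.

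Tbx3, a repressor needed for limb and mammary development, had a value on every array. At 6 hours its log2 ratios were 0.93, 1.46 and 0.94 on replicates 1, 2 and 3. At 24 hours they were 0.91, 1.38 and 1.65 on replicates 4, 5 and 6. The values of the 2 times overlapped, and the lowest of all, on replicate 4, was still a 1.88-fold higher GH signal. Tbx3 rose 2.16-fold at 6 hours (log2 ratio 1.11 ± 0.19, SE, n = 3, limma adjusted p = 0.0397) and 2.49-fold at 24 hours (1.31 ± 0.19, n = 3, limma adjusted p = 0.0119). Over both times it rose 2.32-fold (1.21 ± 0.13, n = 6, limma adjusted p = 0.00317). Without replicate 1 the 6-hour value was 1.20 (limma adjusted p = 0.0420).

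The order of Tbx3 among the rows of an array, which a rescaling of the array does not alter, lay between the 89.5th percentile on replicate 4 and the 97.7th on replicate 5. A two-sided exact sign-flip permutation test over the 6 arrays gave p = 0.0312, the smallest it can give, and Tbx15 gave the same. Any row with the same sign on all 6 arrays gives this p. Of the rows tested with 6 values, 17.7% were above 0 and 15.7% below 0 on all of them. For Tbx3 the call at 6 hours depended on which arrays entered. It ended without replicate 2 (0.94, limma adjusted p = 0.234), 3 (1.20, 0.179), 4 (1.11, 0.0583) or 6 (1.11, 0.0567), and with 6 hours fitted alone (0.0805), with 0.00332 to 0.341 over all alternatives. With rows of a single array per time kept in it also ended without replicate 5 (limma adjusted p = 0.0522). These losses were not particular to Tbx3: at 6 hours limma called 0 rows of 18022, 17886 and 18391 without replicates 2, 3 and 4 (2212, 2318 and 4465 at an unadjusted p under 0.05), and 111 of 18561 without replicate 6. At 24 hours the Tbx3 call ended without replicate 6 (1.15, limma adjusted p = 0.0685, with 0.0109 to 0.182 over all alternatives), when 0 of 18561 rows passed by limma (4781 at an unadjusted p under 0.05).

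Tbx15, the factor of shoulder girdle and limb skeleton, had the smallest ratios of the 4 genes. At 6 hours they were 0.42, 0.44 and 0.56 on replicates 1 to 3, close together. At 24 hours they were 0.72 on replicate 4 and 0.16 on both replicates 5 and 6, so replicate 4 stood alone. Tbx15 did not pass at 6 hours (0.47 ± 0.15, SE, n = 3, limma adjusted p = 0.114) or at 24 hours (0.35 ± 0.15, n = 3, limma adjusted p = 0.127). Over both times it rose 1.33-fold (0.41 ± 0.10, n = 6, limma adjusted p = 0.0266). This call ended without replicate 2 (0.42, limma adjusted p = 0.0826), 3 (0.39, 0.0893) or 4 (0.32, 0.0572), with 0.0107 to 0.252 over all alternatives. Its percentile on the arrays ranged from 57.6 on replicate 6 to 86.4 on replicate 1.

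Tbx19, the corticotroph factor, was measured on 4 arrays. Its log2 ratios were 1.15 on replicate 2 and 0.63 on replicate 3 at 6 hours, and 1.40 on replicate 4 and 1.33 on replicate 6 at 24 hours. Both 24-hour values lay above both 6-hour values. For 2 against 2 values a two-sided exact permutation test then gives p = 0.333, the smallest it can give. The scan file names of replicates 4 and 6 also carry another prefix than those of replicates 2 and 3. Time and prefix cannot be told apart for Tbx19. Tbx19 did not pass at 6 hours (0.89 ± 0.20, SE, n = 2, limma adjusted p = 0.0857). It rose 2.57-fold at 24 hours (1.36 ± 0.20, n = 2, limma adjusted p = 0.0207) and 2.18-fold over both times (1.13 ± 0.14, n = 4, limma adjusted p = 0.00877). With rows of a single array per time kept in, where the lone value is assumed to vary like those of the other time, the 24-hour call ended without replicate 4 (1.33, limma adjusted p = 0.106) or 6 (1.40, 0.119), with 0.0158 to 0.184 over all alternatives.

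Tbx20, the factor of heart development, varied most between arrays. Its log2 ratios were 0.53 on replicate 2 and 1.13 on replicate 3 at 6 hours. At 24 hours they were 1.88, 0.62 and 1.04 on replicates 4, 5 and 6, from 1.54-fold to 3.67-fold. The times overlapped, and replicate 4 gave the highest value of any T-box row on any array. Tbx20 did not pass at 6 hours (0.83 ± 0.33, SE, n = 2, limma adjusted p = 0.189). It rose 2.27-fold at 24 hours (1.18 ± 0.27, n = 3, limma adjusted p = 0.0377) and 2.01-fold over both times (1.00 ± 0.21, n = 5, limma adjusted p = 0.0206). The 24-hour call ended without replicate 4 (0.83, limma adjusted p = 0.105) or 6 (1.25, 0.136), or with 24 hours fitted alone (1.18, 0.0622). With rows of a single array per time kept in it also ended without 2 (1.18, limma adjusted p = 0.0603) or 3 (1.18, 0.0647), with 0.0318 to 0.620 over all alternatives. The call over both times ended without replicate 6 (1.04, limma adjusted p = 0.0547), and with rows of a single array per time kept in also without 2 (1.16, 0.0595) or 3 (0.85, 0.110), with 0.0102 to 0.152 over all alternatives. The exact sign-flip test over 5 arrays gave p = 0.0625, the smallest it can give. Any row with 5 values of the same sign gives this p. Of the rows tested with 5 values, 41.2% were above 0 and 16.1% below 0 on all of them.

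**Figure D2:**
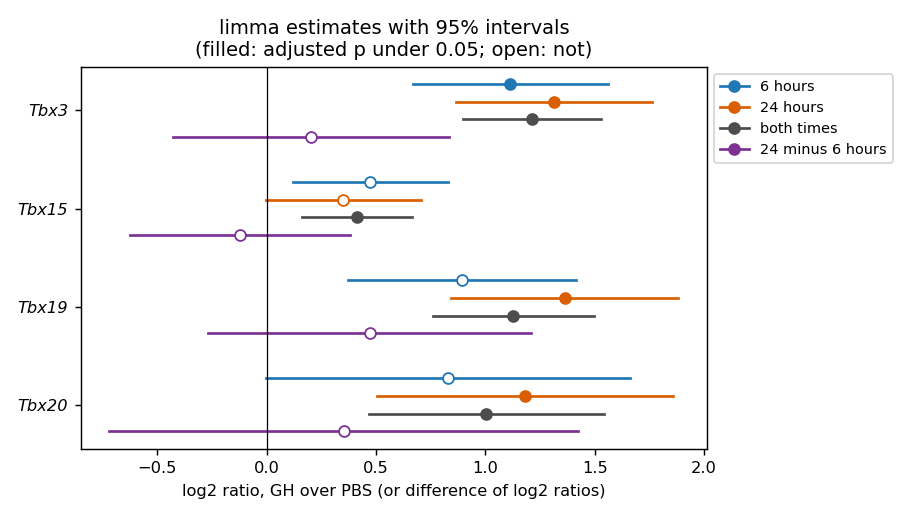
Estimates of the log2 ratio of GH over PBS and of its difference between times (horizontal axis) for each T-box gene (vertical axis), with bars for limma's 95% intervals, filled circles for an adjusted p under 0.05 and open circles for the rest. Tbx3 is filled at both times, Tbx19 and Tbx20 at 24 hours, and each interval of the difference between times spans 0.

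The 4 genes were chosen with earlier results of these data known, so their counts describe them and do not test the T-box family. Counted together, 1 of the 4 rows rose at 6 hours, where 2.75% of all tested rows passed as higher. At 24 hours 3 of 4 rose, against 12.4% of all rows, and over both times 4 of 4 rose, against 19.2%. None of the 4 fell in these comparisons, where 0.636%, 8.87% and 16.3% of all rows passed as lower. Tbx19 and Tbx20 had no value on replicate 1. Of such rows 32.7% passed as higher at 24 hours and 51.4% over both times, against 11% and 17% of rows with a value there. Among the 19326 rows, the mean ratios stood at the 96.5th (Tbx3), 84.6th (Tbx15), 93.8th (Tbx19) and 92.7th (Tbx20) percentile at 6 hours. At 24 hours these were the 96.4th, 74.3rd, 96.9th and 94.9th. These ranks and shares take the ratio as GH over PBS. If it ran the other way, the same rows would pass, higher and lower would change places, and the ranks would count from the bottom.

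**Figure D3:**
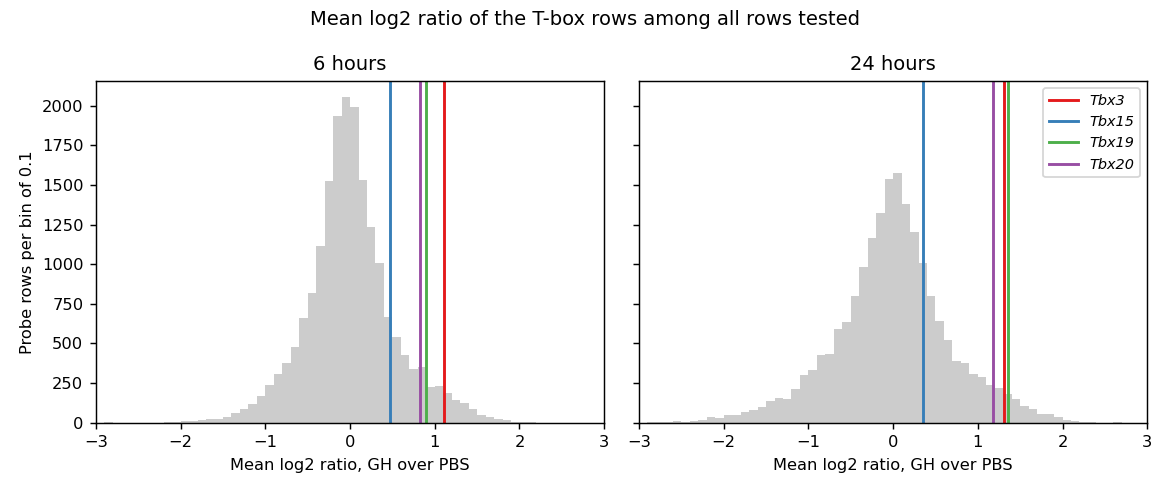
Number of probe rows (vertical axis) by mean log2 ratio of GH over PBS (horizontal axis, bins of 0.1) at 6 and at 24 hours, with a coloured line at each T-box gene. Tbx3, Tbx19 and Tbx20 lie in the right tail at both times, and Tbx15 lies at the 84.6th and 74.3rd percentile.

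The 24-hour ratios were then set against the 6-hour ratios. Tbx3 differed by 0.20 ± 0.26 (95% interval -0.43 to 0.83), Tbx19 by 0.47 ± 0.28 (-0.27 to 1.21) and Tbx20 by 0.35 ± 0.43 (-0.72 to 1.42). Tbx15 differed by -0.12 ± 0.21 (-0.63 to 0.38). No row of the 4 passed (unadjusted limma p 0.157 to 0.573), and among all rows 0 passed (0%, with 585 at an unadjusted limma p under 0.05). The intervals still allow a 24-hour ratio up to 1.21 higher for Tbx19 on the log2 scale, so equal ratios are not shown. An exact permutation test, two-sided, gave p = 0.7 for Tbx3 and p = 0.6 for Tbx15, where 3 against 3 arrays cannot go below 0.1. The sign for Tbx3 turned when arrays were scaled to equal spread (-0.05).

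The prefix of the scan file name in the labels sets replicates 4 and 6 apart from the rest, so most of the 24-hour data carry another prefix than the 6-hour data. On the prefix shared by both times, replicate 5 alone stood for 24 hours. There Tbx3 had 1.38 against 0.93 to 1.46 at 6 hours, Tbx20 had 0.62 against 0.53 and 1.13, and Tbx15 had 0.16, below its 6-hour values of 0.42 to 0.56. With the prefix as a covariate 0 of 3 T-box rows passed at 24 hours (30 of 18591 rows by limma, 2549 at an unadjusted p under 0.05). Over both times Tbx3 still passed with it (1.25, limma adjusted p = 0.0321, with 0.00120 to 0.0630 over all alternatives). Tbx19, with no value on replicate 5, could not be fitted with the prefix at 24 hours.

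Among themselves the 4 rows differed in profile. On the 4 arrays with all of them, the order was Tbx3, Tbx19, Tbx20, Tbx15 on replicates 2 and 6, while Tbx20 was highest on replicates 3 and 4. Tbx3 and Tbx19 were closest, with a root mean square difference of 0.364 in log2 ratio over 4 shared arrays, and Tbx3 and Tbx15 farthest, at 0.929 over 6. The differences between the means of Tbx3, Tbx19 and Tbx20 at each time were smaller than the array-to-array SD of Tbx20 (0.428 at 6 and 0.638 at 24 hours).

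Markers of other tissues moved with some of these values. The median of 11 skeletal muscle rows was 0.08, 0.33 and 1.07 on replicates 1 to 3 and 0.86, 0.10 and 0.24 on replicates 4 to 6, with 7, 10, 10, 10, 8 and 8 rows above 0 (10 rows had a value on replicate 5). Single muscle rows ran from -1.12 to 1.79 on replicate 3 and from -1.79 to 1.66 on replicate 4. Tbx20 had only 2 values at 6 hours. The arrays with the highest muscle medians, replicates 3 and 4, also gave the highest Tbx20 ratios at their time, and the highest Tbx15 ratios. For Tbx3 they gave the lowest ratio at 24 hours, on replicate 4, and a value within 0.01 of the lowest at 6 hours, on replicate 3. Tbx19 went both ways, with its lower 6-hour value on replicate 3 (0.63) and its higher 24-hour value on replicate 4 (1.40). Cardiac muscle rows had medians of -0.18 to 0.37 and osteoblast rows of -0.38 to 0.16. Neutrophil rows had 0.11, -0.56, -1.25, -2, -0.79 and -0.89 on replicates 1 to 6, lowest at each time on the arrays where muscle was highest. Without replicates 3 and 4 the mean of Tbx20 at 24 hours was 0.83 (limma adjusted p = 0.162) and that of Tbx3 was 1.52 (0.112), and 0 of the 4 rows passed at either time or over both. In that fit limma called 0 of all 19439 rows tested in each comparison (2253 at 6 hours, 4809 at 24 hours and 5584 over both times had an unadjusted p under 0.05), so the lost calls are not particular to the T-box rows. The part of muscle or marrow cells in these ratios was not tested.

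**Figure D4:**
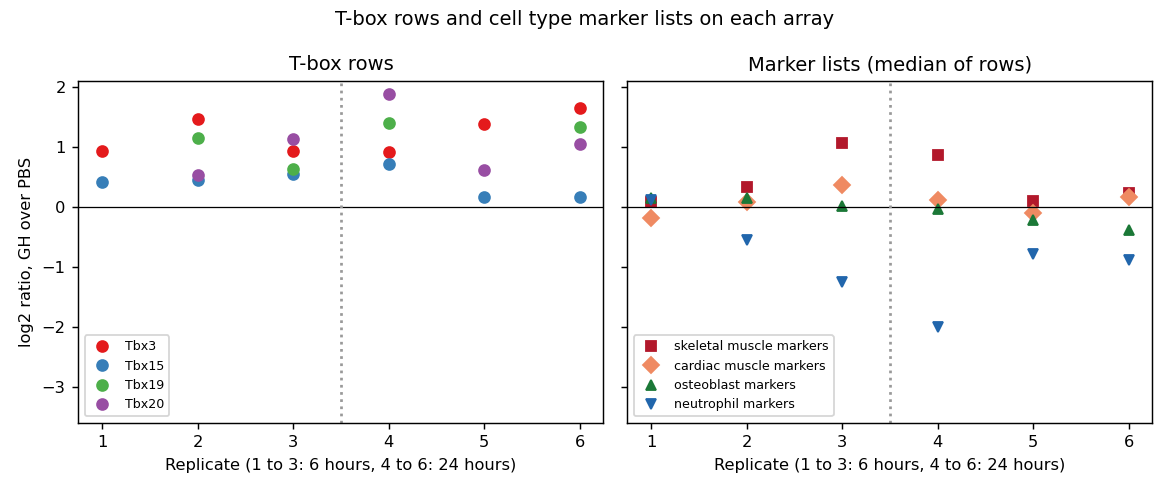
Log2 ratio of GH over PBS (vertical axis) on each array (horizontal axis) for the T-box rows (left) and as the median of rows of 4 cell type marker lists (right). Skeletal muscle medians are highest on replicates 3 and 4 (1.07 and 0.86), where Tbx20 reads 1.13 and 1.88.

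Only 5 other rows carried a T-box family name, for 3 of the 14 other family names listed. Eomes, a factor of early embryos, nerve progenitors and killer lymphocytes, rose at 24 hours (1.06 ± 0.16, SE, n = 3, limma adjusted p = 0.0178) and over both times (1.03 ± 0.13, n = 5, limma adjusted p = 0.00619). Its values were 1.16 and 0.82 on replicates 2 and 3 and 0.79, 1.01 and 1.38 on replicates 4 to 6. Like Tbx19 and Tbx20 it had no value on replicate 1. Tbx4, the hindlimb factor, ranged from 0.07 to 1.05 on 4 arrays and did not pass (0.50 ± 0.20 over both times, limma adjusted p = 0.113). The 3 rows of Mga, which joins a T-box with a Max-binding domain, had 0.20, -0.05 and -0.004 over both times and did not pass. In this list 0, 1 and 1 of 5 rows rose at 6 hours, at 24 hours and over both times, against 2.75%, 12.4% and 19.2% of all rows, so 1 of 5 is near the share over all rows. In this list 0 fell. Limma's fit put 4, 4 and 3 of the 5 rows above 0.

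A list of 32 partner and target genes of T-box factors had 28 tested rows of 19 genes. At 6 hours 1 rose and 0 fell, against 2.75% higher and 0.636% lower of all rows. At 24 hours 7 rose and 2 fell, against 12.4% and 8.87%, and over both times 8 rose and 5 fell, against 19.2% and 16.3%. The list's medians were 0.15, 0.07 and 0.08, beside -0.02, -0.0001 and -0.01 over all rows.

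Among heart and limb partners Gata6, a zinc finger factor of heart and gut, rose in all 3 rows at 24 hours (1.20 ± 0.22, 1.71 ± 0.20 and 1.51 ± 0.26). Its 6-hour ratios, 0.72, 0.93 and 1.33, did not pass. Gata4, a partner of Tbx20 in heart muscle, rose in row 1 at 24 hours (0.97 ± 0.21) and had -0.17 in row 2. Hand1, a basic helix-loop-helix factor of heart and limb, rose in row 2 at 6 hours (1.15 ± 0.15) and at 24 hours (1.06 ± 0.15), while row 1 had -0.01 and 0.11. The zinc finger gene Sall4 rose in row 1 at 24 hours (1.21 ± 0.17) and had -0.80 in row 2, which did not pass. Over both times the 2 Sall4 rows passed in opposite directions, row 1 as higher (0.71, limma adjusted p = 0.00839) and row 2 as lower (-0.75, 0.0258). Gli3, the hedgehog factor of limb patterning, fell in row 1 (-0.78 ± 0.21) and had 0.30 in row 2. Of these, only Gata6 had rows that all passed in the same direction.

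Neurod1, a partner of Tbx19 on the Pomc gene, rose at 24 hours (0.95 ± 0.26, SE, n = 3, limma adjusted p = 0.0476). It was the only gene of 5 corticotroph markers with a row under a single name. Among Groucho corepressor genes, which several T-box repressors recruit, Tle2 fell at 24 hours (-0.54 ± 0.15, limma adjusted p = 0.0484). Over both times row 2 of Tle1 (-0.99 ± 0.24) and of Tle4 (-0.36 ± 0.10) fell as well. Row 1 of Tle1 (-0.61, limma adjusted p = 0.123) and of Tle4 (-0.21, 0.396) did not pass over both times. Neither did Tle3 (-0.19, limma adjusted p = 0.157). Of the reported Tbx3 targets, the cadherin gene Cdh1 rose over both times (0.31 ± 0.09, limma adjusted p = 0.0431), and the cell cycle inhibitor gene Cdkn1a had 0.31 (limma adjusted p = 0.0804). The heart hormone gene Nppa, a Tbx3 target in the heart, had 0.06, and Nkx2-5 had -0.04.

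**Figure D5:**
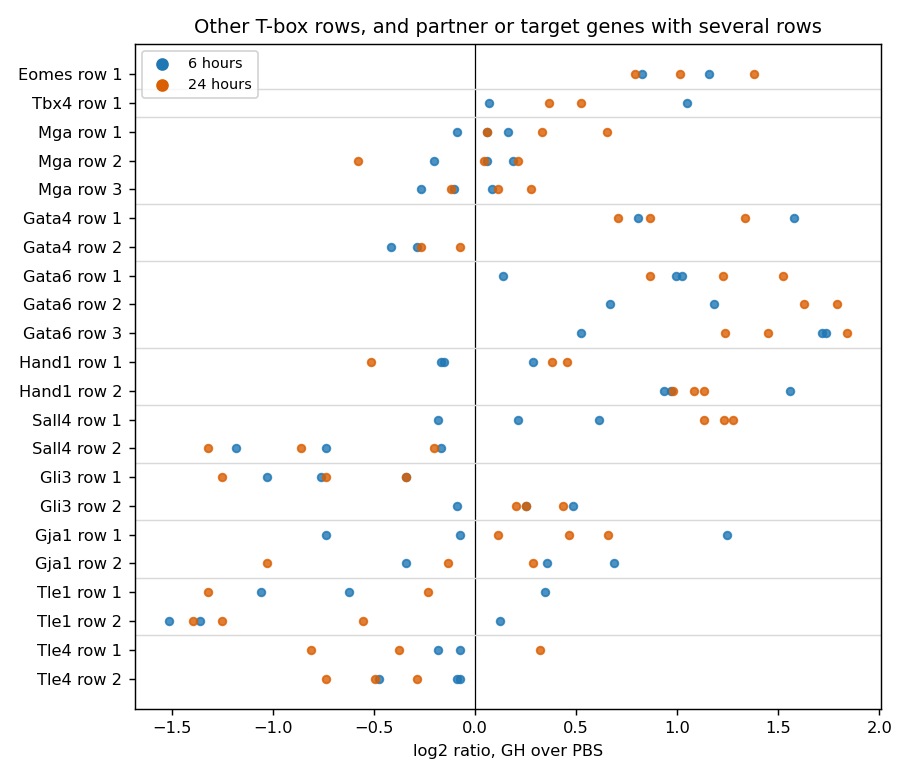
Log2 ratio of GH over PBS (horizontal axis) on each array, blue for 6 and orange for 24 hours, for rows of the other T-box genes and of partner or target genes with several rows (vertical axis). The rows of Gata4, Hand1 and Gli3 do not overlap, while the 3 rows of Gata6 are all above 0 on each array with a value.

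Each of Tbx3, Tbx15, Tbx19 and Tbx20 had a single row, so their ratios could not be set against a further row of the gene. The named rows most like each member were found by the root mean square difference of log2 ratios over the arrays where the member had a value. Each gene is named for its single closest row; Cyp7b1, Armh3, Shprh, Exo1 and Hat1 had 2 rows each and Meg3 had 8, and the likeness holds for that row alone. For Tbx3 they were Cyp7b1, an oxysterol hydroxylase gene (0.114 over 6 arrays), Armh3 (0.152) and the imprinted RNA Meg3 (0.170). For Tbx15 they were the VEGF receptor gene Flt1 (0.0541 over 6 arrays), Lsm14b (0.0811) and Rap1gds1 (0.0852). For Tbx19 they were Shprh (0.111 over 4 arrays), the exonuclease gene Exo1 (0.115) and the histone acetyltransferase gene Hat1 (0.118). For Tbx20 they were Cryab, a small heat shock protein gene abundant in heart and skeletal muscle (0.170 over 5 arrays), Myo16 (0.191) and Tnfsf4 (0.224). Cryab had 0.76 and 1.33 on replicates 2 and 3 and 1.89, 0.61 and 0.82 on replicates 4 to 6. Like Tbx20 it was highest on replicate 4, and so were Myo16 (1.71) and Tnfsf4 (1.68). All the rows named here are nearest rows out of 10401 to 10943. Some likeness, a shared highest array included, therefore comes from the search alone.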

How the data were processed

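Bone RNA was measured on 6 two-colour arrays. The authors deposited 1 log2 ratio per row and array, centred near 0. RNA was amplified from an oligo(dT) primer with a T7 promoter, per the labels' protocols; how values were normalized or flagged is not stated in the labels or files used here, so signal over background is unknown. The number of arrays limits the precision. Gene names came from the platform annotation; 11813 of 21446 rows had 1 symbol, 559 several and 9074 none. limma 3.58.1 in R 4.3.3 fitted 1 mean per time to each row with at least 2 values per time (19326 rows), two-sided, Benjamini-Hochberg adjusted, threshold 0.05. Rows were not averaged, since rows of a gene can disagree. Errors are limma's standard errors unless called SD. The fit was tested on simulated data. Exact permutation p-values are unadjusted. Named were all member rows, related rows that passed (else the 4 with the smallest p) and the 3 nearest rows; further values of 2-row genes and of known targets were added after their values were seen. Promoters were matched by symbol; 2 of 4 had an entry. Members and lists were chosen with earlier results of these data known. Alternatives were centring, scaling, quantile normalization, averaging rows, missing-value rules, scan prefix, each time alone, array weights, robust prior and left-out replicates.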

Additional observations from a re-analysis of the deposited data

How the results depend on the processing

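Counts of T-box rows that rose (1 at 6 hours, 3 at 24 hours, 4 over both times) held with median centring, equal scaling, quantile normalization, rows averaged per gene, rows kept with 1 array per time and a robust prior. They were 0 at 6 and 2 at 24 hours with each time fitted alone, which gives no value over both times, and 3 at 6 hours with array weights. With complete rows only, which drop Tbx19 and Tbx20, they were 1 at 24 hours and 2 over both times. With the scan prefix they were 0 and 1 of 3 rows, and without replicates 3 and 4 they were 0 at each time and over both. Leaving out 1 replicate gave 0 to 1, 0 to 3 and 1 to 4. Only 2 of the rows were tested without replicate 2 or 3, and 3 without replicate 4 or 6. Leaving out replicates with rows of 1 array per time kept in, and replicates 3 and 4 together, were chosen after seeing the data. By limma the difference between times passed for 0 T-box rows under every alternative run. It turned below 0 for Tbx3 (-0.054 with equal scaling, -0.051 with quantile normalization and -0.0496 with array weights), and for Tbx20 to -0.21 with the prefix; the cause was not tested. Over all rows limma called 654 at 6 hours (531 higher, 123 lower), but 2232 after quantile normalization (1544 and 688), 2031 after equal scaling, 7660 with array weights, 0 with 6 hours alone (4953 at an unadjusted p under 0.05) and 0 to 1727 without single replicates. At 24 hours it called 4116, but 2707 with 24 hours alone, 30 with the prefix and 0 to 4961 without single replicates. Over both times it called 6868, but 1134 with the prefix and 2445 to 7870 without single replicates. Mice were euthanized at 6 or at 24 hours, so the times came from different animals and no paired analysis was possible.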
